A study of Arabidopsis thaliana with 15 samples.

Results

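Naxillin and the auxin NAA were compared in Arabidopsis roots 2 h after transfer to either compound, on 3 arrays each, or 6 of the 15 arrays of the series. The members were chosen by label alone: the 3 arrays of roots given 50 µM naxillin for 2 h, the 3 arrays of roots given 10 µM NAA for 2 h, and all 22746 probe sets that are not array controls. All seedlings were Col-0. They had germinated on 10 µM NPA, an inhibitor of auxin transport, and were moved 3 days after germination. The other 3 groups, also of 3 arrays, held roots given 50 µM naxillin for 6 h, roots given 10 µM NAA for 6 h, and roots taken before transfer. Each sample pooled 500 root sections without meristems, so that NPA exposure and the missing meristem are shared by every group. The 3 arrays of a group came from 3 independent experiments. Doses of the compounds differ, each at 1 level, so that compound and dose cannot be told apart. Transfer and time after it were the same for both compounds, whereas the roots before treatment were not transferred, and no roots transferred without a compound for 2 h were analysed here. In a bulk sample fewer cells of a type and less RNA per cell cannot be told apart.

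NAA is a synthetic auxin. Auxin binds receptors of the TIR1/AFB family together with Aux/IAA repressors, which are then degraded, and auxin response factors activate their targets. Early targets include the Aux/IAA genes themselves, GH3 genes, whose enzymes conjugate auxin to amino acids, and LBD transcription factors that start lateral root founder cell divisions in the pericycle. Naxillin was found in a screen for lateral root inducers and is known as a probe that is not itself an auxin but promotes the conversion of the precursor IBA to IAA by peroxisomal beta-oxidation. Seedlings germinated on NPA lack lateral root initiation, and transfer to auxin then starts it in the pericycle synchronously.

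The values were log2 expression levels on Affymetrix ATH1 arrays. They ran between 3.03 and 14.8 on the 6 arrays with lower quartiles of 4.72 to 4.81. Levels near or under those quartiles are called dim below. A stricter cut at the median, used for some counts, kept only probe sets above the median on at least 3 arrays. Medians of the 6 arrays were 7.08 to 7.15, so this cut also removed probe sets that were not dim. Correlations across probe sets were 0.990 to 0.995 among the naxillin arrays and 0.992 to 0.994 among the NAA arrays, against 0.963 to 0.981 between arrays of different compounds. The root marker PYK10, a beta-glucosidase abundant in roots, stood at 14.4 with either compound. Its log2 difference, always given as naxillin minus NAA, was -0.02 (95% interval -0.20 to 0.15). Of the 15 arrays, none duplicated another.

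Of the 22746 probe sets, 3657 or 16.1% differed between the compounds at 2 h at an adjusted p under 0.05 (called), 1682 or 7.39% higher with naxillin and 1975 or 8.68% lower. The median difference over all probe sets was 0.02 log2. At least 2-fold were 1020 (4.48%), of which 445 (1.96%) were higher and 575 (2.53%) lower, and the lower side held the large differences. At 2 log2 units or more 57 were higher and 130 lower, at 3 or more 10 and 45, and at 4 or more 1 and 14. The 3 arrays of one compound did not overlap the 3 of the other for 6633 probe sets, 29.2% of all. Of the 19089 probe sets that were not called, 18321 or 96.0% had a 95% interval of the difference within 1 log2 unit of 0 on either side. For these a difference above 2-fold lay outside the interval. In 5 simulated data sets of 22746 probe sets with 200 changed, differences of 0.5 log2 were found in 42.4% of cases, of 1 in 88.0% when upward and 85.2% when downward, and of 2 in 98.8%, while 6.77% of calls were false. The share changed there was smaller than the 16.1% called here, and the adjusted p depends on that share. These rates therefore need not hold for this comparison. Genes could be named for 13513 of the probe sets, so that 885 named genes were called higher and 1075 lower. Of the 55 probe sets called at 3 log2 units or more in either direction, 26 had a named gene. Rankings below thus hold among named genes only. A list member counts as measured where a probe set has it as its only gene, and unmeasured members may be on the array without a name. Lists and members were chosen with earlier results of these data known. Counts of called members therefore describe these data and are no independent test of a list.

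Genes of the auxin response were far lower with naxillin than with NAA. GH3.1, which conjugates auxin to amino acids, had the largest difference of any named gene. It stood at 4.77, 5.07 and 4.52 on the naxillin arrays and 11.35, 10.72 and 11.20 on the NAA arrays, against 4.81, 5.05 and 4.46 before treatment. Its naxillin arrays thus lay among those before treatment, near the lower quartile of the array, and its NAA arrays were all above both. The difference was -6.30 log2 (SE 0.18, adjusted p 4.79e-11), or 79.0-fold, and in dim probe sets RMA values understate a fold. WES1, also known as GH3.5, had 10.26, 9.40 and 9.02 with naxillin and 13.59, 13.30 and 13.52 with NAA, against 8.55, 9.21 and 9.12 before treatment. It was lower by 3.91 log2 (SE 0.25, adjusted p 1.43e-07) in naxillin roots, of which the arrays at 10.26 and 9.40 lay above all 3 arrays before treatment. GH3.3 had 12.59, 12.11 and 10.85 with naxillin, 14.54, 14.52 and 14.45 with NAA, and 10.83, 9.84 and 10.88 before treatment. Here the naxillin arrays spread widely and reached 1.33 log2 above the level before treatment on average, while still lying below every NAA array (-2.65 log2, SE 0.34, adjusted p 0.000111). GH3.17 went the other way, with a mean of 10.29 in naxillin roots and 9.38 in NAA roots (0.91 log2, adjusted p 0.00165), and GH3.9 at 4.30 and 4.26 was at the dim end with both. Of the 5 measured GH3 genes 1 was thus higher and 3 lower, with a median of -2.65 log2. Among all probe sets 7.39% were called higher and 8.68% lower.

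Of 29 listed Aux/IAA repressor genes 7 were measured. Of these 4 were lower and 0 higher, beside 8.68% lower and 7.39% higher among all probe sets, with a median of -0.65 log2. IAA29 had 4.75 to 5.11 with naxillin, 10.01, 9.76 and 9.75 with NAA and 4.85, 4.99 and 4.79 before treatment (-4.89 log2, SE 0.15, adjusted p 9.13e-11). IAA30 had 5.25, 5.16 and 5.19 with naxillin, 9.32, 9.44 and 8.92 with NAA and 4.90, 5.20 and 5.10 before treatment (-4.02 log2, SE 0.16, adjusted p 1.23e-09). For both repressor genes the naxillin arrays lay near those before treatment and far below every NAA array. IAA18 was lower by 1.14 log2 and IAA20 by 0.65 log2. IAA31, IAA33 and IAA34 had means of 4.39, 4.63 and 5.14 in naxillin roots and 4.50, 4.52 and 5.15 in NAA roots and were not called. IAA34 lay little above the lower quartile and the other two below it.

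Transcription factors that act in lateral root founder cells were also lower with naxillin. LBD29 had 7.23, 7.15 and 7.48 with naxillin, 11.91, 12.05 and 12.38 with NAA and 6.52, 6.39 and 7.26 before treatment, a difference of -4.82 log2 (SE 0.20, adjusted p 2.05e-09). LBD16 had 7.87, 7.88 and 7.58 with naxillin, 10.99, 11.05 and 11.04 with NAA and 7.25, 7.35 and 7.51 before treatment (-3.25 log2, SE 0.13, adjusted p 1.38e-09). The naxillin arrays of LBD16 all lay above those before treatment, by 0.41 log2 on average, a step that was not called (adjusted p 0.0647). PUCHI, an AP2-type factor that limits divisions in the primordium, had 5.03, 4.60 and 4.64 with naxillin, 8.14, 7.58 and 8.32 with NAA and 4.89, 4.68 and 4.74 before treatment (-3.26 log2, SE 0.18, adjusted p 4.25e-08). CR4, a receptor kinase gene known as ACR4 that acts in founder cell divisions, had means of 5.10 in naxillin roots and 5.51 in NAA roots, a difference of -0.41 log2 that was not called (adjusted p 0.0781). Thus 3 of 4 measured regulators were lower and 0 higher, beside 8.68% lower and 7.39% higher among all probe sets.

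The 2 measured genes of the 15 on the list of auxin synthesis, oxidation and conjugate release showed the opposite sign. YUC6 and YUC2 encode flavin monooxygenases that make IAA. YUC6 had 7.61, 7.78 and 7.77 with naxillin, 6.23, 5.70 and 5.69 with NAA and 8.12, 8.06 and 8.19 before treatment (1.84 log2, SE 0.17, adjusted p 4.52e-06). YUC2 had 7.06, 7.24 and 7.13 with naxillin, 6.09, 6.03 and 5.76 with NAA and 7.05, 7.04 and 7.07 before treatment (1.19 log2, SE 0.11, adjusted p 5.57e-06). Both measured members of that list were higher with naxillin, beside 7.39% higher among all probe sets. AIM1, a peroxisomal beta-oxidation protein, was the only measured member of the 18 on the IBA conversion list. It had means of 11.24 in naxillin roots and 11.13 in NAA roots. Its difference of 0.11 log2 was not called, with a 95% interval of -0.05 to 0.27.

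**Figure D1:**
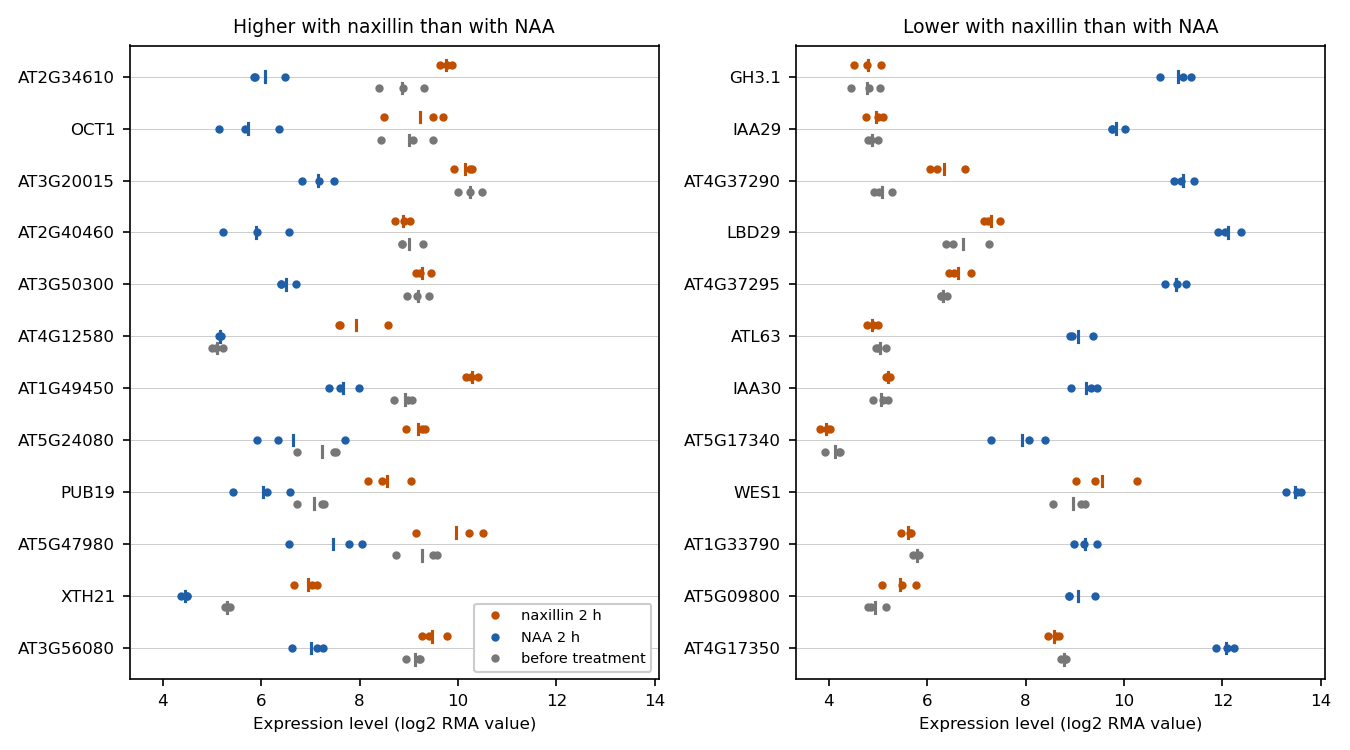
Expression level (log2 RMA value, x axis) on each array for the 12 named genes with the largest positive difference (left) and the 12 with the largest negative difference (right) among called genes without overlap at 2 h. Points are single arrays of naxillin 2 h, NAA 2 h and roots before treatment, and short vertical lines are means of 3. On the right the naxillin points of every gene lie closer to the points before treatment than the NAA points do, while on the left this holds for 7 of the 12 genes.

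Among the 12 named genes with the largest negative difference, -3.48 to -6.30 log2, the naxillin mean was nearer than the NAA mean to the level before treatment in all 12, and within 1 log2 unit of it in 11. The exception to the second count was AT4G37290. It had 6.06, 6.77 and 6.19 with naxillin, 11.15, 11.42 and 11.02 with NAA and 5.28, 5.03 and 4.92 before treatment, so that both compounds lay above the roots before treatment, NAA by far the more (-4.85 log2, SE 0.19, adjusted p 1.38e-09). The neighbouring tag AT4G37295 had 6.45, 6.89 and 6.55 with naxillin and 10.83, 11.26 and 11.07 with NAA (-4.42 log2). ATL63, of the ATL family of RING ubiquitin ligases, had 4.89, 4.78 and 4.99 with naxillin, 8.90, 8.94 and 9.36 with NAA and 4.96, 4.99 and 5.16 before treatment (-4.18 log2, SE 0.14, adjusted p 1.94e-10). AT4G17350, at 8.67, 8.62 and 8.46 with naxillin and 12.10, 11.87 and 12.23 with NAA, was well above the lower quartile in both groups (-3.48 log2, adjusted p 4.79e-11). AT5G17340, AT1G33790 and AT5G09800 complete the set at -3.98, -3.61 and -3.61 log2; the reference table gives these tags no description.

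CLE44, which encodes the TDIF peptide that keeps vascular stem cells dividing, had 8.40, 8.29 and 7.71 with naxillin, 11.05, 11.11 and 10.94 with NAA and 7.47, 8.38 and 8.03 before treatment (-2.90 log2, SE 0.20, adjusted p 3.13e-07). The related CLE41 had means of 8.04 in naxillin roots and 7.82 in NAA roots and was not called. NPF4.3 (AT1G59740), of the nitrate and peptide transporter family, stood at 8.03, 7.31 and 6.91 with naxillin against 10.00, 10.06 and 9.39 with NAA (-2.40 log2, SE 0.28). NPF6.2 (AT2G26690) and NPF6.4 (AT3G21670) went the other way, higher with naxillin by 1.97 and 1.32 log2. Of the 11 measured family members 2 were higher and 1 lower, beside 7.39% higher and 8.68% lower among all probe sets.

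The 12 named genes with the largest positive difference, 2.47 to 3.69 log2, fell into unlike patterns against the roots before treatment. In 7 of them the naxillin mean was the nearer one and within 1 log2 unit of the level before treatment. In the other 5 the NAA mean was nearer, and it was within 1 log2 unit in 3. OCT1, an organic cation and carnitine transporter, is of the first kind. It had 9.69, 8.49 and 9.49 with naxillin, 6.37, 5.67 and 5.14 with NAA and 8.44, 9.50 and 9.09 before treatment (3.49 log2, SE 0.36, adjusted p 1.35e-05). Its naxillin arrays overlapped those before treatment, whereas its NAA arrays lay below both. AT3G20015 had 9.91, 10.29 and 10.25 with naxillin, 7.47, 7.17 and 6.82 with NAA and 10.49, 10.00 and 10.24 before treatment (3.00 log2, adjusted p 5.49e-08). AT2G40460 (2.98 log2) and AT3G50300 (2.77 log2) had the same order of levels. AT2G34610, first in size of the named genes called higher, had 9.77, 9.87 and 9.64 with naxillin, 5.86, 6.48 and 5.87 with NAA and 8.40, 9.31 and 8.88 before treatment. For this gene the naxillin arrays all lay above and the NAA arrays all below those before treatment (3.69 log2, SE 0.29, adjusted p 1.27e-06), although the naxillin step of 0.90 log2 was not called.

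The second kind was led by AT4G12580. It had 7.60, 7.58 and 8.58 with naxillin, 5.16, 5.19 and 5.14 with NAA and 4.99, 5.09 and 5.22 before treatment (2.75 log2, SE 0.22, adjusted p 1.40e-06). The NAA arrays stayed within 0.07 log2 of the level before treatment on average. XTH21, of the xyloglucan endotransglucosylases that cut and rejoin wall xyloglucan, had 6.66, 7.03 and 7.14 with naxillin, 4.49, 4.36 and 4.49 with NAA and 5.36, 5.27 and 5.30 before treatment. Its naxillin arrays were above and its NAA arrays below all 3 before treatment (2.50 log2, SE 0.15, adjusted p 1.10e-07). PUB19, a U-box ubiquitin ligase known from drought and abscisic acid responses, had 9.05, 8.16 and 8.46 with naxillin, 6.11, 6.58 and 5.43 with NAA and 6.72, 7.28 and 7.24 before treatment (2.52 log2, adjusted p 1.93e-05). AT5G24080 at 2.53 log2 was of this kind too, and so by a small margin was AT1G49450 at 2.62 log2. In AT1G49450 the naxillin mean lay 1.35 log2 above the level before treatment and the NAA mean 1.27 log2 below it.

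The PUB and ATL ubiquitin ligases were called in both directions, 2 of 12 measured higher and 6 lower, beside 7.39% higher and 8.68% lower among all probe sets. PUB22 and PUB23, which dampen immune responses, were lower with naxillin by 0.92 and 0.98 log2, PUB25 by 0.57 and PUB26 by 1.34. PUB24 of the same group was not called (-0.39 log2, adjusted p 0.222).

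Genes of several cell wall families were called, to be read beside 7.39% higher and 8.68% lower among all probe sets. The pectate lyase, pectin methylesterase, peroxidase, ribosomal protein and ribosome assembly lists were assembled by locus tag from general knowledge of the families. Earlier results of these data were known at that point. The annotation tables used here do not describe most of these tags, so they are named only as list members. Of 23 measured tags on the pectate lyase list, whose enzymes cleave pectin, 0 were higher and 4 lower, and the median over all 23 was 0.00 log2. The cut at the median kept 9 of the 23. AT1G04680 had 6.71, 7.18 and 7.21 with naxillin, 10.29, 9.65 and 11.02 with NAA and 7.04, 6.74 and 7.03 before treatment (-3.29 log2, SE 0.31, adjusted p 5.86e-06). AT1G67750 had 5.30, 5.55 and 5.53 with naxillin against 8.59, 7.40 and 8.51 with NAA (-2.71 log2), and AT4G13710 was lower by 1.89 log2.

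The pectin methylesterase list, whose enzymes take methyl groups off pectin, leaned the other way, with 9 of 43 measured tags higher, 2 lower and a median of 0.05 log2. AT5G19730 had 8.56, 8.99 and 8.34 with naxillin, 6.52, 6.50 and 6.36 with NAA and 8.60, 8.13 and 8.25 before treatment (2.17 log2, SE 0.17, adjusted p 1.05e-06). AT3G49220 was higher by 1.28 log2 and AT2G19150 by 0.99. Without 1 array at a time 6 to 9 tags were called higher. The median level of the 43 tags was 4.79 in naxillin roots, near the lower quartile of the arrays. The cut at the median kept 12 of the tags.

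Expansins, which loosen cell walls, counted 2 higher and 3 lower of 19 measured. The higher count was 4 without replicate 3 of the naxillin roots and 1 without replicate 3 of the NAA roots. EXPA20 stood at 7.59, 7.33 and 7.35 with naxillin against 9.12, 8.88 and 9.26 with NAA (-1.66 log2, adjusted p 6.08e-06), and EXPA4 was lower by 1.38 log2. EXLB1, an expansin-like B gene, went the other way at 9.15, 9.13 and 9.13 with naxillin and 7.65, 7.39 and 7.53 with NAA (1.62 log2, adjusted p 5.14e-05). Of 10 measured xyloglucan endotransglucosylase genes 3 were higher and 0 lower: XTH21 above, XTH32 by 1.65 log2 and EXGT-A3 by 0.36 log2. EXGT-A3 was not called without replicate 3 of the NAA roots (adjusted p 0.130) or without replicate 1 or 2 of the naxillin roots. XTH18 had 6.80, 8.10 and 7.96 with naxillin, 8.03, 8.82 and 8.57 with NAA and 5.22, 5.53 and 5.71 before treatment, so that both compounds lay above every array before treatment. Its difference of -0.85 log2 was not called (adjusted p 0.0753, 95% interval -1.50 to -0.20), but it was without replicate 1 of the NAA roots (adjusted p 0.0441) or without replicate 2 of the naxillin roots (adjusted p 0.0404).

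Of the class III peroxidase list, enzymes of wall cross-linking and reactive oxygen, 4 of 55 measured tags were higher and 5 lower, shares near the 7.39% and 8.68% of all probe sets, with a median of 0.12 log2. AT2G18980 had 9.06, 9.36 and 9.43 with naxillin, 11.75, 11.27 and 12.18 with NAA and 9.63, 9.70 and 10.34 before treatment (-2.45 log2, SE 0.22, adjusted p 4.03e-06). AT1G44970 and AT5G15180 were higher by 1.70 and 1.55 log2, with naxillin means of 7.49 and 9.30. With 1 array left out at a time only 1 to 4 tags were called lower. Of 23 measured trichome birefringence-like genes, several of which acetylate wall polysaccharides, 6 were higher and 1 lower, led by TBL28 (1.01 log2) and TBL38 (0.95 log2).

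Ribosome assembly genes were lower with naxillin nearly as a whole list. These are nucleolar factors that process ribosomal RNA and build both subunits. Of 28 measured tags 26 were called lower and 0 higher, beside 8.68% lower among all probe sets, with a median of -0.93 log2. The median level of the list was 8.65 in naxillin roots and 9.37 in NAA roots. AT3G12860 had 5.57, 6.09 and 6.06 with naxillin, 8.05, 8.06 and 8.62 with NAA and 5.92, 5.69 and 5.68 before treatment (-2.34 log2, SE 0.22, adjusted p 5.58e-06). AT3G22660 had 7.62, 8.10 and 8.29 with naxillin, 9.22, 9.33 and 9.43 with NAA and 7.80, 7.77 and 7.89 before treatment (-1.32 log2, SE 0.20, adjusted p 0.000414). In both genes the naxillin arrays spanned those before treatment and lay below every NAA array. AT5G14520, annotated as PESCADILLO, was lower by 0.87 log2, IMP4, a small subunit processome protein, by 0.73 and PCN, annotated as POPCORN, by 0.45. The tags not called were AT1G06720 (-0.99 log2, adjusted p 0.0517) and AT1G10300 (-0.25 log2, adjusted p 0.0734). The count rested on the arrays: without replicate 1 of the naxillin roots 16 tags were called, as without replicate 3 of the NAA roots, and at most 27 without any other array.

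**Figure D2:**
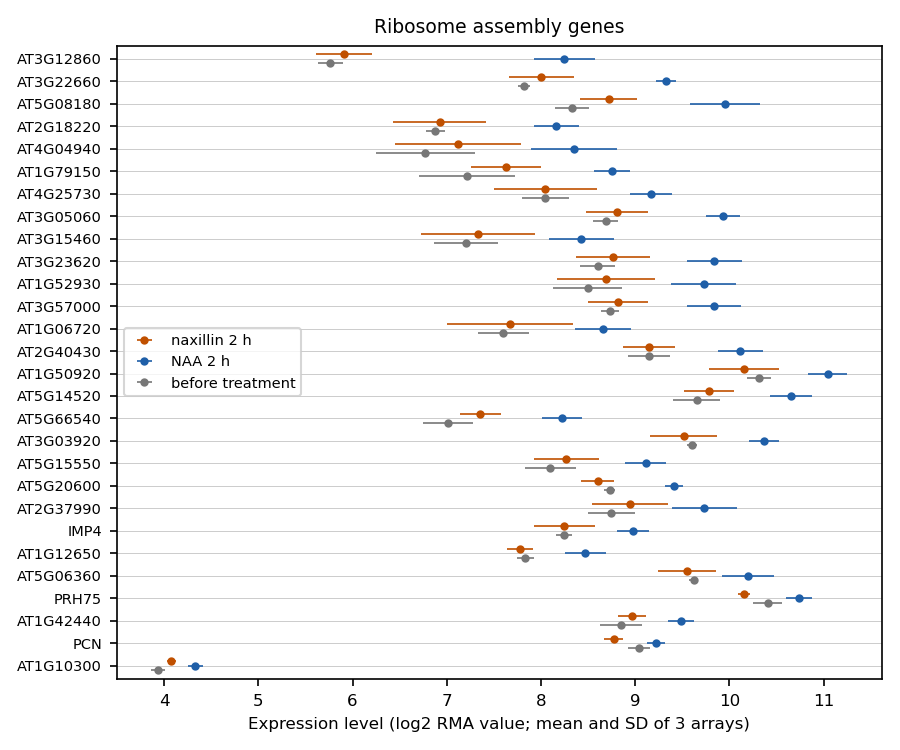
Mean expression level (log2 RMA value, x axis) with SD of 3 arrays for the 28 measured tags of the ribosome assembly list, ordered by the difference at 2 h, in roots given naxillin for 2 h, NAA for 2 h and roots before treatment. The naxillin mean lies left of the NAA mean in every row and mostly beside the mean before treatment, and SDs are wide with naxillin in several rows.

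Cytosolic ribosomal proteins had a smaller median difference than the assembly list. Of 124 measured tags 27 were lower and 0 higher, beside 8.68% lower among all probe sets. The median difference was -0.42 log2, and the median level was 10.6 in naxillin roots and 11.2 in NAA roots. Only 3 of the 124 had a positive difference. AT5G59240 had 5.44, 5.80 and 6.03 with naxillin, 7.24, 7.74 and 7.93 with NAA and 5.61, 5.28 and 5.58 before treatment (-1.88 log2, SE 0.17, adjusted p 4.66e-06). AT1G23410 was lower by 1.71 log2 and AT2G32220 by 1.63 log2. The number of calls moved from 10, without replicate 1 of the naxillin roots or without replicate 3 of the NAA roots, to 45 without replicate 3 of the naxillin roots, while 0 were higher without any of the 6 arrays. A fit with the replicate number as a block called 75 lower and 0 higher. Whether these numbers pair the samples is not settled.

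Of 72 listed WRKY transcription factors, a family with many defence and stress regulators, 7 were measured. Of these 4 were lower with naxillin and 0 higher, beside 8.68% lower among all probe sets. WRKY53, a factor of senescence and defence, had 5.49, 5.51 and 5.80 with naxillin, 8.03, 8.48 and 8.11 with NAA and 5.40, 5.53 and 5.26 before treatment (-2.61 log2, SE 0.14, adjusted p 3.78e-08). WRKY6 was lower by 0.73 log2, while WRKY22 had means of 8.53 in naxillin roots and 8.67 in NAA roots, both above its 7.13 before treatment, and was not called. BGLU28, a beta-glucosidase that rises under sulfur shortage, had 5.42, 5.77 and 5.32 with naxillin, 7.36, 7.98 and 7.83 with NAA and 4.51, 4.34 and 4.13 before treatment (-2.22 log2, SE 0.15, adjusted p 3.81e-07). Of 22 measured beta-glucosidases 2 were higher and 2 lower, near the 7.39% and 8.68% of all probe sets, and BGLU24 was higher by 1.01 log2. LEA4-5, a late embryogenesis protein of drying seeds and stressed tissue, had 10.19, 9.73 and 9.78 with naxillin, 7.93, 9.03 and 7.02 with NAA and 6.66, 7.87 and 7.83 before treatment (1.90 log2, SE 0.49, adjusted p 0.0164). The call was lost when replicate 3 of the NAA roots was left out (1.42 log2, adjusted p 0.0872) or replicate 1 of the naxillin roots (1.76 log2, adjusted p 0.0637). It was the one called member of 3 on the abscisic acid list.

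Of 4 measured touch and calcium genes 2 were higher and 0 lower, beside 7.39% higher and 8.68% lower among all probe sets. The cut at the median kept 0 of the 4, so that none could be called with it. AT1G76640 had 5.25, 5.05 and 5.75 with naxillin against 4.52, 4.75 and 4.55 with NAA (0.74 log2, adjusted p 0.00395). CML23, a calmodulin-like protein, was higher by 0.66 log2 (adjusted p 0.0316) but was not called without any 1 of 4 arrays, replicates 1 and 3 of the NAA roots and replicates 2 and 3 of the naxillin roots, with an adjusted p up to 0.138.

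Some detoxification genes stood above the roots before treatment with both compounds. Glutathione transferases, which couple glutathione to foreign compounds, counted 3 higher and 1 lower of 13 measured, with a median of -0.02 log2. Among all probe sets 7.39% were higher and 8.68% lower. The lower call, GSTU22 (-0.45 log2, adjusted p 0.0482), was lost without any 1 of 5 arrays and with poly-A scaling. GSTU26 stood at 8.49, 9.25 and 8.89 with naxillin against 7.05, 8.13 and 7.86 with NAA (1.20 log2, SE 0.26, adjusted p 0.00535), and GSTU18 was higher by 1.12 log2. GSTU25 had 11.12, 11.85 and 11.48 with naxillin, 12.04, 12.34 and 11.82 with NAA and 10.02, 9.17 and 9.15 before treatment. Both compounds thus lay above every array before treatment, and the difference between them, -0.59 log2, was not called (adjusted p 0.103, 95% interval -1.07 to -0.10). MSRB9, a methionine sulfoxide reductase that repairs oxidised proteins, had 9.57, 10.59 and 11.17 with naxillin, 8.81, 10.29 and 10.03 with NAA and 7.32, 7.61 and 8.13 before treatment. Its difference of 0.73 log2 was not called either (adjusted p 0.272), with an interval of -0.13 to 1.60 that leaves room for a difference above 2-fold. Of the 5 measured genes of methionine sulfoxide reduction and sulfate assimilation 0 were called.

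Of 51 measured UDP-glycosyltransferases, which attach sugars to hormones, phenolics and xenobiotics, 8 were higher and 4 lower, with a median of 0.19 log2. These counts stand beside 7.39% higher and 8.68% lower among all probe sets. UGT72E2, which glucosylates monolignols, had 11.29, 11.45 and 11.56 with naxillin, 9.94, 9.96 and 10.25 with NAA and 11.13, 11.11 and 11.22 before treatment (1.38 log2, SE 0.11, adjusted p 1.22e-06). UGT73B4 had 11.05, 11.70 and 11.54 with naxillin, 12.36, 12.37 and 12.23 with NAA and 10.50, 10.00 and 10.11 before treatment. It was the one called member of 4 on the xenobiotic enzyme list (-0.89 log2, SE 0.16, adjusted p 0.00149), and its naxillin arrays lay between NAA and the roots before treatment.

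**Figure D3:**
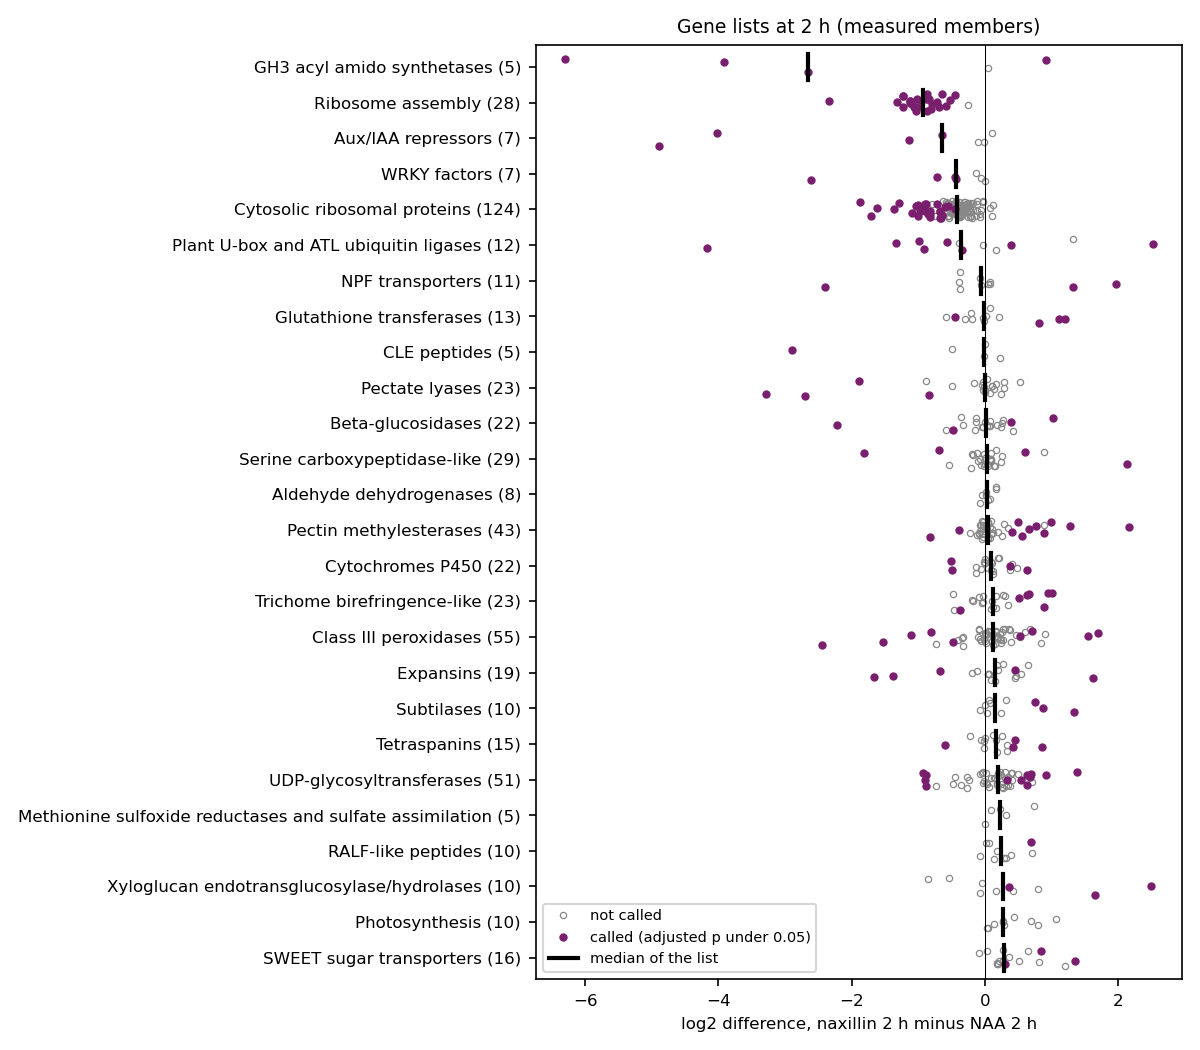
Difference in expression at 2 h (log2, naxillin minus NAA, x axis) of each measured member of the gene lists with 5 or more measured members, 1 row per list with its number of members, ordered by median. Filled points were called at an adjusted p under 0.05, open points were not, and black bars are medians; the GH3 and ribosome assembly rows have the lowest medians, -2.65 and -0.93.

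The measured photosynthesis, cell cycle and root hair genes were not called at 2 h in the main fit of group means. They were 10 of 52, 4 of 24 and 2 of 11 listed genes. With the replicate number added as a block, 3 of the 10 photosynthesis genes were called higher, and 0 of the cell cycle and root hair genes. All 10 measured photosynthesis genes had a positive difference, 0.03 to 1.07 log2 with a median of 0.28, and 0 were called. LHCB4.2, a light harvesting protein, came nearest with 7.74, 7.10 and 6.60 with naxillin, 6.68, 6.10 and 5.46 with NAA and 8.39, 8.70 and 8.02 before treatment (1.07 log2, adjusted p 0.0616). The arrays of both compounds overlapped there and all lay below those before treatment. LHCB4.2 was called without replicate 3 of the naxillin roots (adjusted p 0.0312), without replicate 1 of the NAA roots (adjusted p 0.028) or with the cut at the median (adjusted p 0.0454). Without 1 array 0 to 3 of the 10 were called, the 3 without replicate 3 of the naxillin roots. Of 4 measured DNA replication and cell cycle genes 0 were called, with differences of -0.09 to 0.36 log2. AUR3, an Aurora kinase of mitosis, had means of 5.60 in naxillin roots and 5.23 in NAA roots (95% interval 0.03 to 0.70). The root hair markers EXPA7 and EXPA18 had means of 8.44 and 8.67 in naxillin roots, 7.89 and 8.03 in NAA roots and 6.87 and 7.23 before treatment, and were not called between the compounds. EXPA18 was called without replicate 3 of the naxillin roots (0.98 log2, adjusted p 0.0347).

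Most differences of 2 h were there again at 6 h, measured on other arrays. At 6 h 11511 probe sets or 50.6% were called, 6177 (27.2%) higher and 5334 (23.5%) lower, and 4523 (19.9%) differed at least 2-fold. Of the 1682 probe sets higher at 2 h, 1377 or 81.9% were called higher at 6 h, which is 22.3% of those higher at 6 h, and 46 were called lower. Of the 1975 lower at 2 h, 1532 or 77.6% were called lower at 6 h, 28.7% of those lower at 6 h, and 92 were called higher. Across all 22746 probe sets, which are not independent of each other, the differences at both times had a Pearson correlation of 0.68 and a Spearman correlation of 0.62. Scaled on the spiked poly-A control transcripts in place of the deposited scale, the median difference at 6 h moved to -0.33 log2 from 0.02, and 3404 probe sets were called higher and 12888 lower. The probe sets called higher at both times were then 1110, against 1377. Those called lower at both times were 1733, against 1532. At 2 h that scaling moved the median only to 0.00 and gave 1494 higher and 1943 lower, so that directions at 6 h hold relative to the typical probe set.

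The test of the change in the difference between 2 h and 6 h called 6898 probe sets, 30.3% of all. Among probe sets higher at 2 h it called 763, of which the difference was wider at 6 h for 597 and narrower for 166, and among those lower at 2 h it called 1171, wider for 845 and narrower for 326. The ribosome lists were among those that widened. The difference in ribosome assembly tags had a median of -0.93 log2 at 2 h and -2.69 at 6 h, when all 28 were called lower, and for all 28 the change with time was called. Of the 124 cytosolic ribosomal protein tags, 27 were lower at 2 h and 119 at 6 h, with 117 called changes. All 10 photosynthesis genes were called higher at 6 h, with a median of 1.71 log2, and all 4 cell cycle genes were called lower, with a median of -1.99 log2. These counts at 6 h were the same or larger with poly-A scaling.

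Of the auxin response genes, 4 of 5 GH3 and 4 of 7 Aux/IAA genes were called lower with naxillin at 6 h, beside 23.5% of all probe sets. GH3.17 turned, from a difference of 0.91 log2 at 2 h to -0.54 at 6 h (adjusted p 0.0127 at 6 h; change -1.46 log2, adjusted p 0.000409). The difference in GH3.1 was -6.30 log2 at 2 h and -6.08 at 6 h, and that in LBD16 was -3.25 log2 at 2 h and -2.99 at 6 h, with no called change in either. The difference in PUCHI was -3.26 log2 at 2 h and -5.76 at 6 h, with means in naxillin roots of 4.76 at 2 h and 5.59 at 6 h, against 8.01 at 2 h and 11.34 at 6 h in NAA roots (change -2.50 log2, adjusted p 1.35e-05). Some differences of other genes were gone or smaller at 6 h. The difference in WRKY53 was -2.61 log2 at 2 h and -0.92 at 6 h (change 1.69 log2, adjusted p 4.54e-05). That in BGLU28 was -2.22 log2 at 2 h and 0.21 at 6 h, when it was not called and its sign turned with poly-A scaling (change 2.43 log2, adjusted p 4.28e-06). XTH21, with 2.50 log2 at 2 h and 0.85 at 6 h, was also closer at the later time (change -1.65 log2, adjusted p 9.33e-05).

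**Figure D4:**
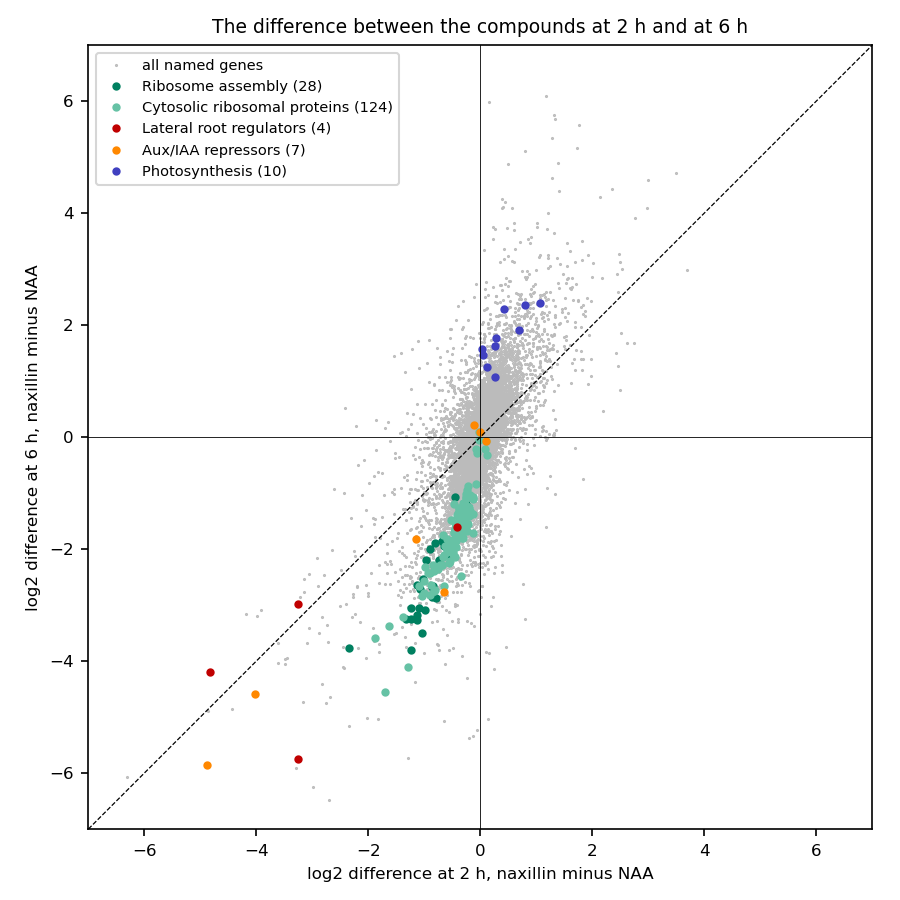
Difference in expression (log2, naxillin minus NAA) at 2 h (x axis) and at 6 h (y axis) for every named gene, 1 point per gene, with 5 gene lists in colour and their number of measured members; the dashed line marks equal differences. All 28 ribosome assembly points and nearly all ribosomal protein points lie below the dashed line, the 10 photosynthesis genes lie above it, and 3 of the 4 lateral root regulators have differences beyond 3 log2 units at 2 h.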

How the data were processed

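RNA from 15 root samples was hybridised to Affymetrix ATH1 arrays. The deposited values are log2 expression levels, which the authors made with RMA in affy 1.36.0, per the submitters' processing notes. RMA corrects background, normalises quantiles across arrays and summarises probe sets. Values were used as deposited. Of 22810 probe sets 64 controls were left out. Of the 22746 tested, 13513 had exactly 1 gene in the platform annotation, 503 several and 8730 none, and 13355 genes were named through RefSeq locus tags; the probe set with the highest mean stood for a gene. The files name no genome build, so no positions are given, and no sequences were used.

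limma 3.58.1 in R 4.3.3 was fitted to all 15 arrays, as 5 group means (10 residual degrees of freedom). p-values are two-sided and adjusted after Benjamini-Hochberg across all 22746, with calls under 0.05. SE is the moderated one; intervals are 95%. The number of arrays limits precision, and nothing in the labels says more of the replicates than independent experiments. The fit was tested on simulated data. Gene lists (54, of which 14 had no measured member) were only counted. Members and lists were chosen with earlier results of these data known, and several lists after seeing which probe sets had names. Named were the 12 largest called differences in each direction without overlap between arrays, 10 marker genes of auxin and stress responses, up to 3 called members of each list or the member with the smallest p, and the 4 largest called changes in each direction between 2 h and 6 h. Further list members were named after their values were seen. Plots used matplotlib 3.10.9 under Python 3.11.15.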

Additional observations from a re-analysis of the deposited data

Results flagged for a closer look

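The difference between the compounds changed between 2 h and 6 h for 70 of the 113 named genes, by limma's test of the compound by time interaction at an adjusted p under 0.05, beside 30.3% of all probe sets. Values here are the log2 difference, naxillin minus NAA, at 6 h less that at 2 h. The change was positive for 40 genes and negative for 30. The genes were partly named for this change, and 6 h values depend on the scaling.

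Among genes called lower with naxillin at 2 h, the change was negative, that is the gap grew, for AT1G67750 -3.78, AT1G23410 -2.84, AT1G04680 -2.62, PUCHI -2.50, AT3G22660 -1.93, AT5G08180 -1.82, AT2G32220 -1.75, AT4G13710 -1.74, AT5G59240 -1.70, AT2G18980 -1.66, AT3G12860 -1.42, EXPA4 -1.38, IAA29 -0.97, scpl28 -0.90, IAA18 -0.68 and AT4G17350 -0.48. PUCHI, IAA29 and IAA18 are genes of the auxin response, EXPA4 is an expansin, and most of the tags are on the pectate lyase and ribosome lists.

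Among genes called higher with naxillin at 2 h, the change was positive for TET7 0.40, EXGT-A3 0.45, AT5G19730 0.68, AT3G21670 0.71, AT3G56080 0.80, TET2 0.83, RALFL24 0.85, TBL41 0.93, GSTU18 1.04, EXLB1 1.04, AT2G40460 1.11, AT3G50300 1.14, SBTI1.1 1.15, TBL38 1.25, SWEET13 1.39, AT1G44970 1.43, AT3G20015 1.59, AT5G15180 1.92, scpl31 2.15, GSTU26 2.52, ATSBT5.2 4.35, AT4G11190 4.43 and AT4G30450 4.92. The 2 h call of AT4G11190 was lost without replicate 2 (adjusted p 0.0594) or 3 (0.0728) of the naxillin roots or replicate 1 of the NAA roots (0.0756). ATSBT5.2, a subtilase, had means of 10.06 in naxillin roots and 4.38 in NAA roots at 6 h.

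For genes called lower at 2 h the gap shrank or turned for BGLU27 0.40, WRKY47 0.61, UGT73B4 0.85, CYP71B29 0.87, TET8 0.99, ATL63 1.02, WRKY53 1.69 and BGLU28 2.43. BGLU28 and WRKY53 had the largest such changes.

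For genes called higher at 2 h the change was negative for XTH21 -1.65, SWEET4 -1.21, AT4G12580 -1.07, AT1G49450 -0.93, AT1G76640 -0.62, AT2G19150 -0.47, UGT72E2 -0.45 and SWEET8 -0.37. SWEET4 had means of 4.73 in naxillin roots and 4.59 in NAA roots at 6 h.

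Genes not called at 2 h changed upward for AIM1 0.33, MSRB3 0.59, ALDH10A8 0.82, GSTU25 1.09, XTH18 1.44, MSRB9 1.74, BCAT4 3.52, AT3G62040 4.38 and AT3G53980 5.83. AT3G53980 had 13.94 in naxillin roots and 13.77 in NAA roots at 2 h, and 13.95 in naxillin roots and 7.95 in NAA roots at 6 h. MSRB3 was called at 2 h without replicate 2 of the naxillin roots (adjusted p 0.0125), and AT3G62040 with quantile normalization of the 6 arrays (adjusted p 0.0424). The change was downward for AT3G57950 -5.21, PR-1-LIKE -5.18, AT1G05577 -5.16, AT2G19970 -5.16, AUR3 -2.49 and RTE1 -0.54. PR-1-LIKE had 4.44 in naxillin roots and 4.30 in NAA roots at 2 h, and 4.33 in naxillin roots and 9.37 in NAA roots at 6 h.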

How the results depend on the processing

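The 3657 calls at 2 h became 2158 (925 higher, 1233 lower) at an adjusted p under 0.01 and 1020 (445 higher, 575 lower) at 2-fold or more. At 6 h, poly-A scaling gave 3404 higher and 12888 lower, or 20.9% higher against 53.7%. No other alternative moved a count of calls over all probe sets by over 1.5 times. With 1 array left out, 2521 to 3518 were called at 2 h (1133 to 1655 higher, 1388 to 1969 lower), 10534 to 11333 at 6 h (5605 to 6046 higher, 4877 to 5287 lower) and 5973 to 7340 for the change between the times (2939 to 3710 higher, 3018 to 3630 lower); of list members 115 to 180 were called against 163, and of named genes 84 to 90 against 92. Signs turned only in genes that were not called: with 1 array left out, BCAT4 ranged over -0.10 to 0.53, PYK10 over -0.07 to 0.03, AT1G05577 over -0.11 to 0.01 and AT2G19970 over -0.77 to 0.32, and PYK10 was 0.01 with array weights and 0.06 with quantile normalization of the 6 arrays. The causes were not tested. With a replicate block 4838 were called at 2 h (2275 higher, 2563 lower), with 75 of the cytosolic ribosomal protein tags lower, 3 of the 10 photosynthesis genes higher (LHCB4.2, adjusted p 0.00848) and XTH18 called lower (adjusted p 0.00585). Deviations of same-numbered naxillin and NAA arrays correlated at 0.566, 0.0853 and 0.527, and those of differently numbered arrays at -0.561 to 0.102. As 1 of 3 same-numbered pairs missed 0.1, a cut-off set by choice, the numbers were not taken to pair the samples. Whether they do pair them is not settled by these values. Dim probe sets limit folds. The cut at the median kept 12738 probe sets, with 3254 calls.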

Other observations

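Families not described above had a few called members at 2 h, beside 7.39% higher and 8.68% lower among all probe sets. The shares of serine carboxypeptidase-like genes and cytochromes P450 were near these. Of 16 measured SWEET sugar transporters 3 were higher with naxillin and 0 lower: SWEET4 had 6.12, 6.05 and 5.52 with naxillin, 4.50, 4.64 and 4.48 with NAA and 4.64, 4.68 and 4.44 before treatment (1.35 log2, adjusted p 1.79e-05), SWEET13 was higher by 0.84 log2 and SWEET8 by 0.31. SWEET8 was dim, with means of 4.66 in naxillin roots and 4.35 in NAA roots. Its call was lost with poly-A scaling (adjusted p 0.0546), array weights (0.0535), quantile normalization of the 6 arrays (0.106) or a fit to these 6 alone (0.092). Of 10 measured subtilases, serine proteases of the cell wall, 3 were higher and 0 lower, led by ATSBT5.2 with 10.85, 10.54 and 10.51 with naxillin against 9.42, 9.58 and 8.90 with NAA (1.33 log2, adjusted p 0.00054). Of 29 measured serine carboxypeptidase-like genes 2 were higher and 2 lower, with scpl31 at 9.74, 9.15 and 9.44 with naxillin and 8.06, 7.29 and 6.57 with NAA (2.14 log2) and scpl30 at 4.38, 4.41 and 4.26 with naxillin and 5.43, 6.94 and 6.12 with NAA (-1.82 log2). Of 15 measured tetraspanins 3 were higher, TET2 by 0.86 log2, and 1 was lower. Of 22 measured cytochromes P450 2 were higher and 2 lower, all by at most 0.63 log2, of 10 RALF-like peptides 1 was higher (RALFL24, 0.69 log2), and of 8 aldehyde dehydrogenases 0 were called.

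The calls of SWEET8, SWEET13, TET8, SBT3.3, SBTI1.1, CYP71B26, CYP71B29 and scpl28 were lost without 1 or more single arrays; the adjusted p reached 0.155 for SWEET13, 0.108 for SWEET8, 0.0978 for TET8, 0.093 for SBT3.3, 0.0633 for SBTI1.1, 0.136 for CYP71B26, 0.074 for CYP71B29 and 0.0503 for scpl28. The ethylene, cytokinin, heat shock, low energy and aliphatic glucosinolate lists had 1 to 3 measured members each and 0 calls. BCAT4 of the last list, an enzyme of methionine chain elongation, had means of 11.30 in naxillin roots and 11.06 in NAA roots at 2 h (95% interval -0.89 to 1.37).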
